A study of Drosophila melanogaster with 96 samples.

Results

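The chorion genes described here are 9 of the 17370 genes counted in the series, taken by their FlyBase symbols: Cp7Fa, Cp7Fb, Cp7Fc, Cp36 and Cp38 on the X chromosome, and Cp15, Cp16, Cp18 and Cp19 on chromosome arm 3L. Single adult Drosophila melanogaster of the white-eyed laboratory strain w1118, all virgin and 3 days old when placed in the feeding wells, were fed chemically defined food for 24 h and starved on phosphate buffered saline for 6 h. Dyed food of the same kind was then given with dimethyl sulfoxide (DMSO), a common drug solvent, at 1 of 4 levels by volume, namely none, 0.1%, 0.2% and 0.4%, and the flies were collected after 0, 2, 4 or 8 h. Whole-body polyadenylated RNA was sequenced from 3 separate flies of each sex in each of the 16 groups of time and DMSO level per sex, that is 48 females and 48 males. The 0 h flies were assigned to a food but had no time to feed on it. At 0 h the 4 foods therefore differ in assignment and not in food eaten. The sample titles give the females of each DMSO level a letter of their own, A to D. An effect of DMSO level and of whatever that letter marks cannot be told apart. The protocols name 1 feeding plate for each time, and therefore an effect of time, of the plate and of the clock hour of collection cannot be told apart. RNA of Drosophila grimshawi and of an Anopheles stephensi embryo was mixed with every fly's RNA before library preparation.

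The chorion is the outer shell of the insect egg. It is made by the follicle cells, the epithelium that wraps each egg chamber, after those cells have laid down the inner vitelline membrane. Both chromosomal clusters that hold the main chorion genes are amplified in follicle cells, so that many gene copies are available for a short burst of transcription. Within that burst the genes follow one another: Cp36 and Cp38 are known as early chorion genes, Cp16 and Cp19 are transcribed in between, and Cp15 and Cp18 are late. Cp7Fa, Cp7Fb and Cp7Fc lie in the X-linked cluster beside Cp36 and Cp38 and are not assigned a stage here. A whole female can carry egg chambers of several stages, and only the last stages transcribe chorion genes.

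In the annotation the X-linked genes lie in the order Cp7Fa, Cp7Fb, Cp7Fc, Cp36 and Cp38, and the genes on 3L in the order Cp18, Cp15, Cp19 and Cp16. No other counted gene lies between neighbours of either cluster. No exon of any of the 9 overlaps an exon of another gene, although the X-linked genes lie inside the span of CG33223 on the opposite strand, and the libraries and counts are stranded. Exonic length ran from 515 bases for Cp15 to 2093 for Cp7Fb.

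Gene counts per female ranged from 2617075 to 9215796, with a median of 4836308, and per male from 958896 to 8493895. Ribosomal RNA genes held 6.74 to 49.0% of the gene counts of a female. Levels of females are given as CPM (counts per 1000000 gene counts), after scaling among the females. Yp1, a yolk protein gene of fat body and follicle cells, was above 100 CPM in all 48 females, with a range of 113 to 13626. The female library of 8 h, 0.4% DMSO, replicate 3 stood apart: it held 4451 CPM summed over 15 marker genes of testis, accessory gland and male dosage compensation, against at most 28.1 in any other female and 2607 to 12929 in the males. Its Cp15 was at 109 CPM, above the 8 h median of 49.2, and each of the other 8 genes was at 1.25 CPM or less. The library is included in the counts of females below. Without it, the numbers of chorion genes called in the time and DMSO comparisons were as given below. For a bulk sample such as a whole fly, fewer cells that make a transcript and less of that transcript per cell cannot be told apart.

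Chorion transcripts differed widely from female to female. The 9 genes summed to between 3.32 and 12556 CPM per female, with a median of 990. In 43 of 48 females at least 1 of the 9 reached 10 CPM, in 35 at least 1 reached 100 CPM, and in 1 female all 9 reached 10 CPM. Cp15 was the highest of the 9 in 31 females.

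The early genes Cp36 and Cp38, which encode major structural proteins of the chorion, ranged from nearly absent to abundant. Cp36 ranged from 0 to 3908 CPM with a median of 2.17 over the 48 females, and 12 females were at 100 CPM or more while 28 were under 10. Cp38 ranged from 0 to 4366 CPM with a median of 1.88. The same 12 females that had 100 CPM of Cp36 also had 100 CPM of Cp38. In the 18 females with both at 10 CPM or more, Cp38 per base of exon was 0.357 to 1.13 times Cp36, with a median of 0.818. Per exonic kilobase the highest levels of both were close, 3502 CPM per kb for Cp36 and 3495 for Cp38, in the same fly of 0 h and 0.2% DMSO.

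The other X-linked genes were lower. Cp7Fa reached at most 131 CPM, Cp7Fb 706 and Cp7Fc 643, and their highest levels per exonic kilobase were 111, 337 and 568 CPM per kb. All 8 females with 100 CPM or more of Cp7Fb and all 7 with that much Cp7Fc were among the 12 with 100 CPM or more of Cp36. Cp7Fc stayed within 0.863 to 2.44 times Cp7Fb per base in the 12 females with both at 10 CPM or more. Against Cp36, both Cp7Fa and Cp7Fb varied more widely than that. Cp7Fa was 0.00440 to 0.159 times Cp36 per base in 10 females with both at 10 CPM or more. Cp7Fb was 0.0107 to 0.485 times Cp36 in 14 such females. In the female of 0 h, 0.1% DMSO, replicate 3, Cp36 measured 827 CPM, Cp7Fa 96.2, Cp7Fb 16.7 and Cp7Fc 4.38. In the female of 0 h, 0.4% DMSO, replicate 1, Cp36 was at a similar 893 CPM, but Cp7Fa measured 5.42, Cp7Fb 419 and Cp7Fc 291. Cp7Fa was thus the higher of the cluster's minor genes in the first fly and by far the lowest in the second.

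The middle genes Cp16 and Cp19 also moved together. Cp16 ranged from 0 to 1263 CPM and Cp19 from 0 to 2609, with medians of 1.34 and 1.74, and 14 and 23 females reached 10 CPM. All 7 females with 100 CPM or more of Cp16 also had it of Cp19, which 11 females did. Cp16 per base was 0.156 to 1.58 times Cp19 in the 14 females with both at 10 CPM or more.

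The late genes Cp15 and Cp18 did not keep company in the same way. Cp15 was at 10 CPM or more in 41 females and at 100 CPM or more in 28, with a range of 0.383 to 5915 CPM and a median of 249. Cp18 was at 10 CPM or more in 13 females and at 100 CPM or more in 9, with a range of 0.293 to 4805 CPM and a median of 2.17. All 9 females with 100 CPM of Cp18 had 100 CPM of Cp15, but 15 of the 28 females with 100 CPM of Cp15 had under 10 CPM of Cp18. The highest Cp15 among those 15 was 1776 CPM, in a female of 4 h and 0.2% DMSO whose Cp18 was 2.09 CPM. In the 13 females with both at 10 CPM or more, Cp15 per base was 0.160 to 135 times Cp18. Cp18 was above Cp15 in 4 of those 13, and all 4 had 100 CPM or more of both Cp19 and Cp16. In the female of 2 h, 0.1% DMSO, replicate 1, Cp18 measured 4805 CPM, Cp19 1732, Cp16 1263 and Cp15 1203. Of the 9 females with 100 CPM of Cp18, 7 had it of Cp19, 6 of Cp16 and 1 of Cp36.

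**Figure D1:**
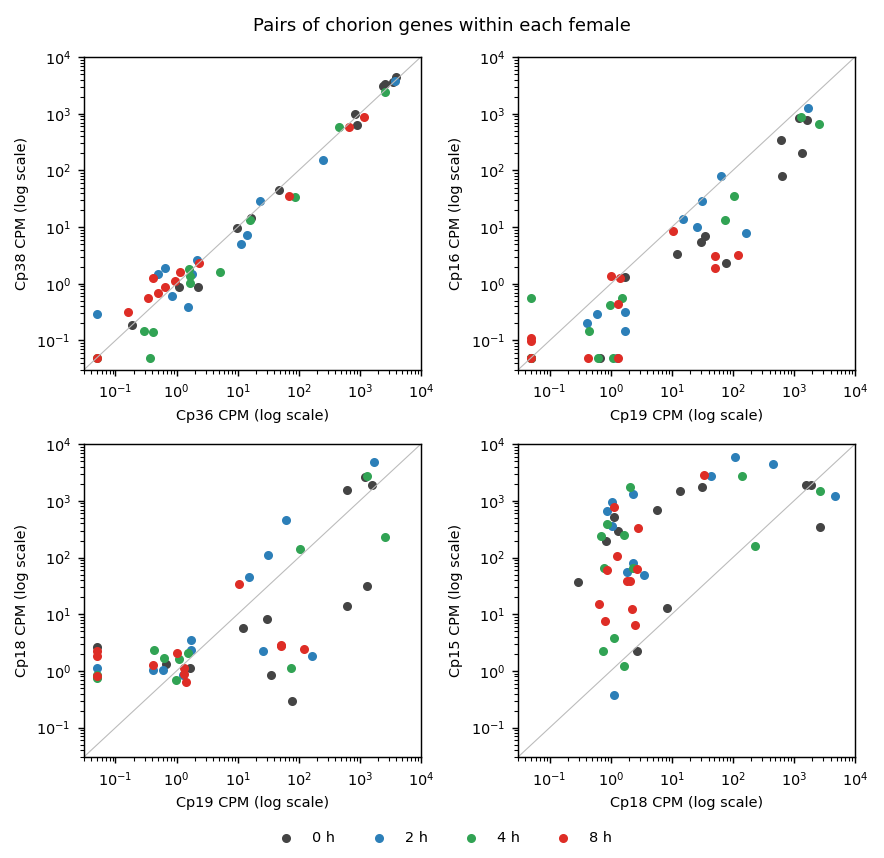
Levels of pairs of chorion genes in each of 48 females, in CPM on log axes, with zeros drawn at 0.05, color for hours of refeeding and a diagonal for equal levels. Cp38 follows Cp36 in the same flies, whereas many flies with abundant Cp15 have under 10 CPM of Cp18.

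Sorted by which of Cp36, Cp19, Cp18 and Cp15 were at 100 CPM or more, the 48 females fell into a few kinds. Cp15 alone passed in 15 females and Cp36 alone in 5. Cp18 with Cp15 passed in 2 females, and Cp19, Cp18 and Cp15 together in 6, without Cp36. Cp36 with Cp15, Cp36 with Cp19, and Cp36 with both were each found in 2 females. In 1 female, of 4 h without DMSO, replicate 3, all 4 passed, with 466 CPM of Cp36, 2609 of Cp19, 235 of Cp18 and 159 of Cp15. The remaining 13 females had none of the 4 at 100 CPM. No female had Cp18 at 100 CPM without Cp15, and none had Cp19 alone.

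**Figure D2:**
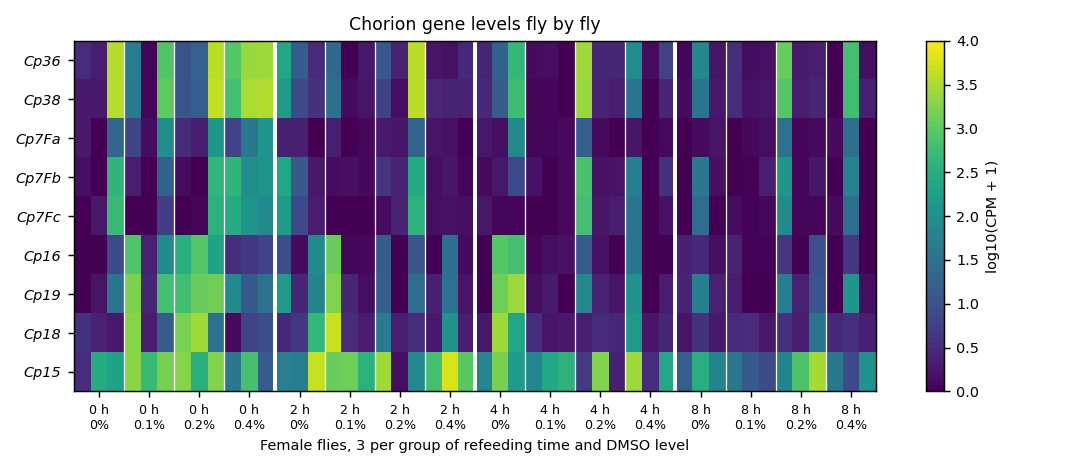
Level of each of the 9 chorion genes in each of 48 females, on a color scale of log10(CPM + 1), with flies in columns ordered by time and DMSO level and genes in rows ordered by stage. Cp15 is present in most columns, and the other genes in blocks that differ from fly to fly within a group.

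In 5 females no chorion gene reached 10 CPM, and they were not alike in other egg chamber transcripts. The vitelline membrane gene Vm26Aa measured 982 CPM in the female of 0 h without DMSO, replicate 1, and 1410 in that of 8 h, 0.1% DMSO, replicate 3. It measured 2.21, 3.45 and 5.61 CPM in the other 3, which were collected at 2 or 4 h. Yp1 was 7301 and 13117 CPM in the former pair and 113, 738 and 1618 in the latter 3 flies.

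The first comparison across time set the females refed for 2 h against those at 0 h, 12 flies each over the 4 foods, which asks how the genes differ shortly after starved flies return to food. Cp36 measured 0.188 CPM in the lowest 0 h fly, 438 at the median and 3908 in the highest, against 0, 1.96 and 3809 at 2 h. At 0 h 8 of 12 flies were at 10 CPM or more, and at 2 h 5 of 12. The ranges of the times overlapped almost entirely, and what differed was how many flies were in the upper part. Cp38 went from 0.188, 338 and 4366 CPM to 0.289, 2.30 and 3859. Cp7Fa went from 0, 5.56 and 131 CPM to 0, 0.704 and 17.8.

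Of the 9 genes, 3 fell at 2 h and none rose, at an adjusted p under 0.05 in edgeR's quasi-likelihood test; 13.6% of the 10060 genes tested were called in either direction 9.27% as higher and 4.37% as lower. The 3 were Cp36 (log2 -4.95, SE 1.62, adjusted p = 0.0385), Cp38 (log2 -5.07, SE 1.61, adjusted p = 0.0335) and Cp7Fa (log2 -4.77, SE 1.13, adjusted p = 0.00814). These log2 values are differences of fitted mean levels, averaged over the 4 foods. Cp7Fb, at log2 -3.62 (SE 1.46), and Cp7Fc, at -4.02 (SE 1.78), did not pass, with adjusted p of 0.0929 and 0.131. The middle and late genes did not pass either: Cp16 was at log2 -0.11 (SE 1.07), Cp19 at -1.47 (SE 1.13), Cp15 at 1.39 (SE 1.01) and Cp18 at 1.13 (SE 1.16). Although the fitted difference of Cp18 was above 0, its median was 6.96 CPM at 0 h and 2.30 at 2 h. At 0 h 5 of 12 flies had 10 CPM or more of Cp18, and at 2 h 4 of 12. The median log2 difference of the 9 genes was -3.62, against -0.04 for all genes tested. Without the female of 0 h, no DMSO, replicate 3, which held 3492 CPM of Cp36, none of the 9 was called, and over all single omissions 0 to 5 were, whereas DESeq2 called 5 of the 9 and 1868 of all genes.

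Of the 9 genes, the late gene Cp15 alone had a higher median at 2 h than at 0 h, a difference that was not called. It measured 2.21, 426 and 1912 CPM at 0 h (lowest, median, highest) and 0.383, 804 and 5915 at 2 h. It was at 10 CPM or more in 11 of 12 flies at each of these times. At 4 h it measured 1.25, 201 and 2734 CPM, and at 8 h 6.54, 49.2 and 2855. The number of flies at 100 CPM or more was 9, 8, 7 and 4 of 12 at 0, 2, 4 and 8 h.

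**Figure D3:**
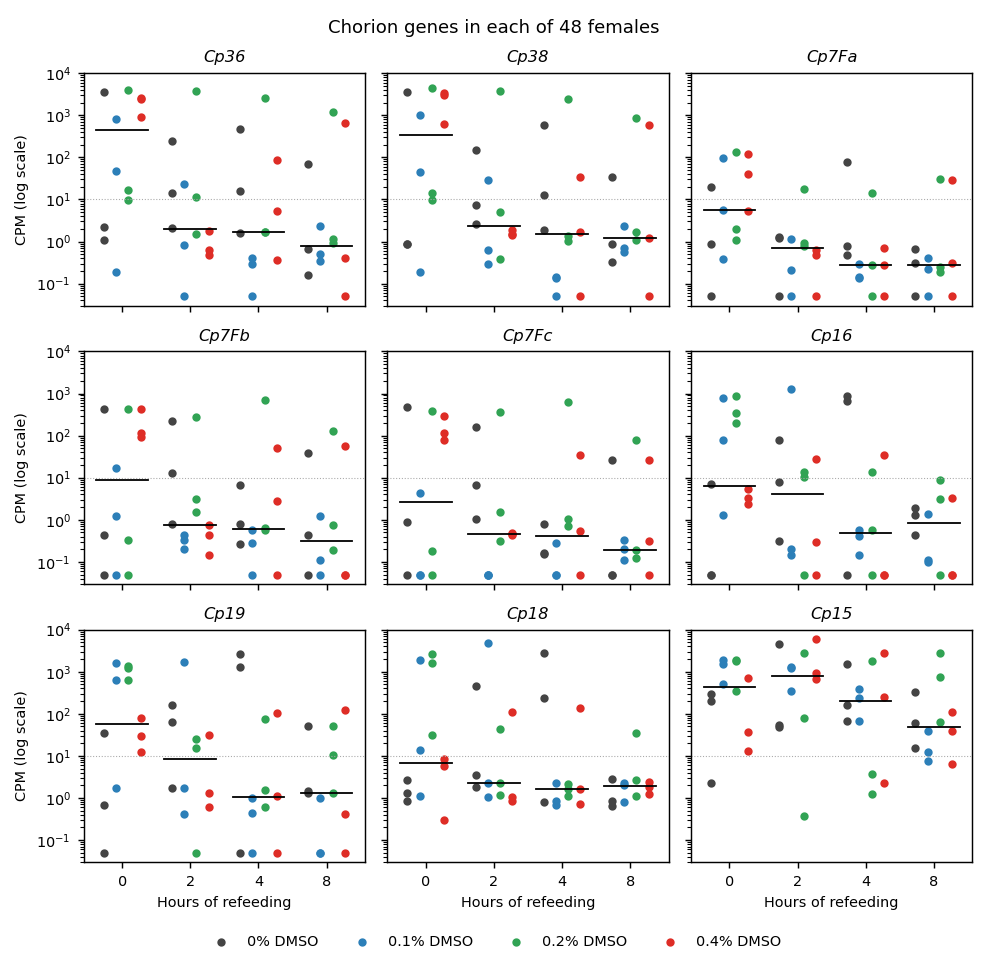
Level of each chorion gene in each of 48 females by hours of refeeding, in CPM on a log axis, with zeros drawn at 0.05, color for DMSO level, bars for the median of 12 flies and a dotted line at 10 CPM. The median of Cp36 lies at 438 CPM at 0 h and under 2 CPM at 2, 4 and 8 h, while the highest fly at each of the 4 times is at 1185 CPM or more.

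At 4 h none of the 9 genes was called against 0 h, and neither was any of the 10060 genes tested (0%). At an unadjusted p under 0.05, 5 of the 9 and 1615 of all genes passed, and DESeq2 called 255 genes in this comparison, 3 of them chorion genes. Cp36 measured 0, 1.67 and 2624 CPM at 4 h, with 4 of 12 flies at 10 CPM or more, and its log2 difference was -4.85 (SE 1.67). Cp38 was at log2 -5.60 (SE 1.75, adjusted p = 0.122) and Cp7Fa at -4.05 (SE 1.16, adjusted p = 0.103). The median of the 9 was -3.23 against 0.01 over all genes tested. The comparisons at 2, 4 and 8 h share the same 12 flies at 0 h, so they are not independent of one another.

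At 8 h all 9 genes were below their 0 h level in the fit, and 2 were called as fallen; 3.59% of genes tested were called in either direction, 0.497% as higher and 3.09% as lower. Cp16, a middle gene, measured 0, 6.23 and 850 CPM at 0 h and 0, 0.855 and 8.60 at 8 h. At 0 h 5 of 12 flies had 10 CPM of it and at 8 h none, and its log2 difference was -4.82 (SE 1.33, adjusted p = 0.0374). Cp7Fa was at log2 -4.00 (SE 1.12, adjusted p = 0.0385). The other 7 lay between log2 -5.25 for Cp38 (SE 1.64, adjusted p = 0.0601) and -2.20 for Cp15 (SE 1.04, adjusted p = 0.221). The median over the 9 was -4.19, against 0.00 over all genes tested. All 9 had an unadjusted p under 0.05, as did 20.8% of all genes tested. In 13 of the 48 fits that each left out 1 female, none of the 9 was called. With the foods with and without DMSO compared apart, within the fit of all 48 females, none was called either. DESeq2 called 6 of the 9 and 704 of all genes.

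In the comparison of 8 h with 2 h, 12 flies each, 3 of the 9 genes fell, all of them on 3L. Of all genes tested, 29.8% were called in either direction, 11.1% as higher and 18.7% as lower, and these flies also enter the comparisons with 0 h. They were Cp18 (log2 -5.32, SE 1.35, adjusted p = 0.00732), Cp16 (log2 -4.71, SE 1.29, adjusted p = 0.0106) and Cp15 (log2 -3.60, SE 1.10, adjusted p = 0.0178). Cp18 measured 0.856, 2.30 and 4805 CPM at 2 h and 0.638, 1.94 and 34.0 at 8 h, so its medians hardly differed and the high flies were at 2 h. Cp19, the other middle gene, was at log2 -2.82 (SE 1.34, adjusted p = 0.0958), with 6 flies at 10 CPM or more at 2 h and 4 at 8 h. The 5 X-linked genes lay between log2 -0.18 for Cp38 and 0.76 for Cp7Fa, with standard errors of 1.44 to 1.98. The median of the 9 was -0.18 and that of all genes tested -0.02. The call for Cp15 rested on the female of 2 h, no DMSO, replicate 3, at 4486 CPM: without it the adjusted p was 0.0845. Without the female of 2 h, 0.1% DMSO, replicate 1, the adjusted p was 0.0724 for Cp18 and 0.456 for Cp16, and without that of 2 h, 0.4% DMSO, replicate 2, it was 0.335 for Cp16. With the foods with and without DMSO fitted apart none of the 9 was called.

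**Figure D4:**
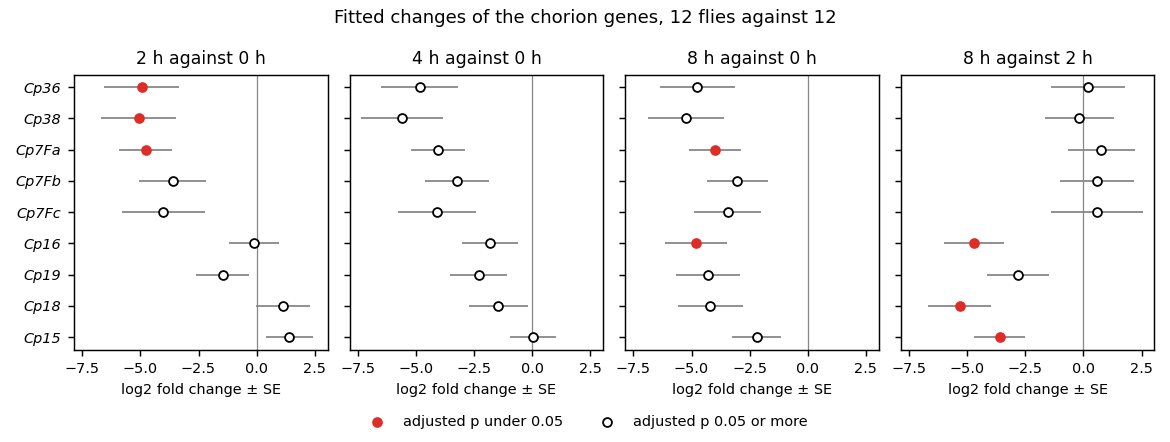
Log2 differences of the 9 chorion genes in the time comparisons, as points with bars of 1 SE, from the edgeR fit over 48 females, with filled points for an adjusted p under 0.05. The X-linked genes lie below 0 against 0 h and near 0 for 8 h against 2 h, where Cp16, Cp19, Cp15 and Cp18 lie below 0.

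The balance of early and late genes within a fly also differed across the times in number of flies. The sum of Cp36 and Cp38 was above the sum of Cp15 and Cp18 in 6 of 12 females at 0 h, in 3 at 2 h, in 2 at 4 h and in 2 at 8 h. Those at 0 h include every fly assigned to 0.4% DMSO. Those at 2 h include the female of 0.2% DMSO, replicate 2, in which no chorion gene reached 10 CPM. Its early sum was 1.92 CPM and its late sum 1.53 CPM, both near the floor. The median early sum was 809 CPM at 0 h and 4.04, 3.24 and 1.86 CPM at 2, 4 and 8 h. The median late sum was 606, 805, 250 and 50.6 CPM. These sums are a description, and the difference between early and late genes was not tested as such.

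DMSO was compared among fed flies only, as the mean of 2, 4 and 8 h, with 9 flies at each level. No chorion gene was called for any DMSO against none, and 0% of all genes tested were called; 2 of the 9 and 240 genes in all had an unadjusted p under 0.05. Those 2 were Cp19, at log2 -3.29 (SE 1.02), and Cp16, at log2 -2.50 (SE 1.23), both with an adjusted p of 1. Cp19 measured 0, 51.6 and 2609 CPM in fed flies without DMSO (lowest, median, highest). At 0.1% it measured 0, 0.433 and 1732 CPM, at 0.2% 0, 10.5 and 75.9, and at 0.4% 0, 1.10 and 121. The numbers of flies at 10 CPM or more were 5, 1, 5 and 3 of 9, and at 100 CPM or more 3, 1, 0 and 2. A trend with dose was not tested.

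For 0.4% DMSO against none, 9 flies each, 0 of 9 chorion genes were called, and 0.00994% of genes tested. None of the 9 had an unadjusted p under 0.05. Cp15 had medians of 66.2, 243, 80.6 and 254 CPM at 0, 0.1, 0.2 and 0.4%, and a log2 difference of 0.04 (SE 1.15) at the highest level against none. Cp36 was at 100 CPM or more in 2, 0, 3 and 1 of 9 flies in that order of levels. With standard errors of 1.15 to 2.16 for the 9 genes, differences of several fold would not be detectable with these flies.

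The 0 h flies show how large a difference arises between foods that had not been eaten. For any assigned DMSO level against none at 0 h, 9 flies against 3, 0 of 9 chorion genes were called and 0.417% of genes tested. Yet Cp18 differed by log2 6.75 (SE 2.81, adjusted p = 0.233), and Cp16 by 4.90 (SE 2.26, adjusted p = 0.261). The 3 flies without DMSO measured 0.846, 1.33 and 2.66 CPM of Cp18. The 3 flies assigned to 0.2% measured 31.5, 1572 and 2693 CPM, and the 3 assigned to 0.4% measured 0.293, 5.71 and 8.21. Cp36 was at 893, 2426 and 2629 CPM in the 3 flies assigned to 0.4% and at 1.11, 2.21 and 3492 in the 3 assigned to none. Flies that had not yet eaten a DMSO food thus differed from group to group in which chorion genes were high. The 6.75 of Cp18 rests on 3 flies without DMSO that all lay under the highest male level of Cp18, 3.81 CPM. Its SE of 2.81 is larger than those of the time comparisons, which set 12 flies against 12. The source of the differences between the 0 h groups was not tested.

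Among replicate flies of a group, levels spread over several orders. The highest of 3 flies divided by the lowest, after adding 0.5 CPM to each, had a median over the 16 groups of 165 for Cp36 and 158 for Cp38. It was 17.5 for Cp7Fa and 21.8 for Cp15. For Cp36 the ratio passed 10 in 12 groups and 100 in 9. The fitted biological coefficient of variation, the spread between replicate flies relative to the mean, was 1.45 for Cp15 and 2.16 for Cp7Fc, at either end of the 9 genes, against a median of 0.298 over all genes tested. They ranked between 18 and 112 from the most variable of the 10060.

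Other genes of the eggshell were counted by lists chosen from general knowledge. None of 6 vitelline membrane genes was called in any of the time comparisons. Vm26Aa, which had the highest single level of them, measured 0.559, 52.0 and 1353 CPM at 0 h and 1.31, 420 and 1410 at 8 h, with 5, 5, 4 and 10 of 12 flies at 100 CPM or more at 0, 2, 4 and 8 h. The vitelline membrane genes as a group had a median log2 difference of 0.98 at 8 h against 0 h, beside -4.19 for the chorion genes.

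Of 12 other eggshell genes, 3 fell and 1 rose at 2 h against 0 h. Of all genes tested, 4.37% were called as lower and 9.27% as higher there. The yellow-family gene yellow-g, needed for a rigid eggshell, fell by 3.89 on the log2 scale (SE 1.04, adjusted p = 0.0134), and the mucin gene Muc4B by 3.45 (SE 1.10, adjusted p = 0.0334). The related yellow-g2 was at 100 CPM or more in 4, 1, 1 and 0 of 12 flies at 0, 2, 4 and 8 h. All 6 of those flies were among the 12 with 100 CPM of Cp36. Cad99C, a cadherin of follicle cell microvilli, rose by 0.55 (SE 0.19, adjusted p = 0.045). At 8 h against 0 h yellow-g (log2 -4.77, SE 1.09) and Muc4B were called as fallen, beside 3.09% of all genes tested. At 8 h against 2 h the peroxidase gene Pxd (log2 -2.44, SE 0.87) and Cad99C (log2 -0.91, SE 0.19) fell. Of all genes tested 18.7% were called as lower in that comparison, a share no smaller than that of the 12 genes. Femcoat, another eggshell gene, was at 100 CPM or more in 3 flies, and all 3 had 100 CPM of Cp19, Cp18 and Cp15 and under 100 of Cp36. None of these genes was called at 4 h against 0 h, and none for DMSO.

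**Figure D5:**
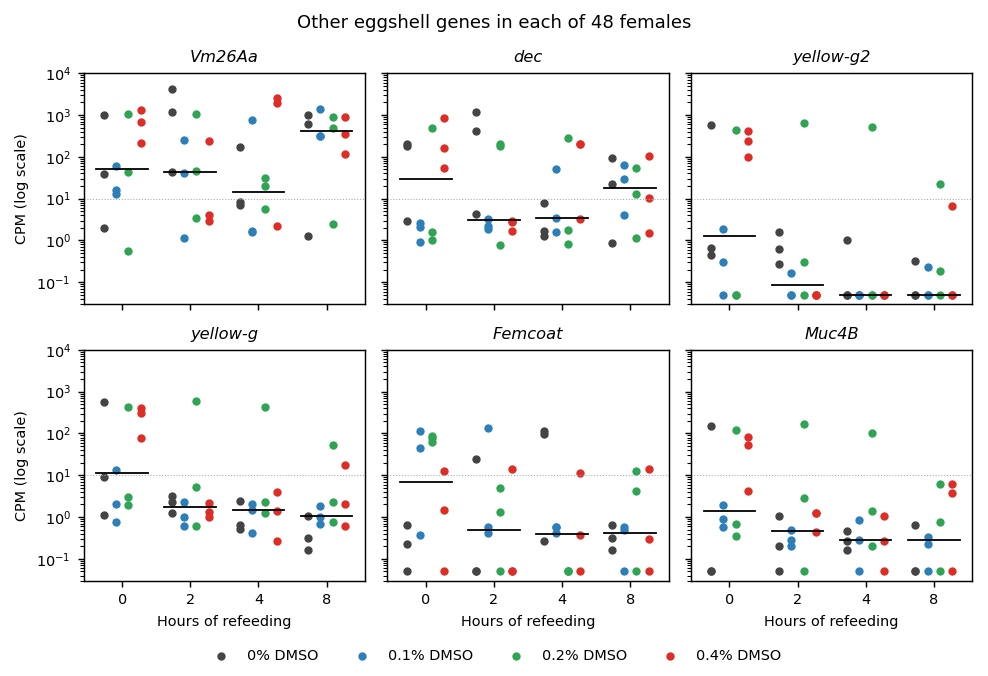
Levels of 6 other eggshell genes in each of 48 females by hours of refeeding, in CPM on a log axis, with zeros drawn at 0.05, color for DMSO level and bars for the median of 12 flies, with a dotted line at 10 CPM. Vm26Aa has its highest median, 420 CPM, at 8 h, whereas yellow-g2 is above 100 CPM in 4 flies at 0 h and in none at 8 h.

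Few genes of yolk and gene amplification were called. The counts at 8 h against 2 h stand beside 29.8% of all genes tested called in either direction, 11.1% as higher and 18.7% as lower. None of 4 yolk genes was called at any time, with group medians between log2 -0.28 and 0.10. Of 20 tested genes of DNA replication and chorion gene amplification, 3 rose at 8 h against 2 h, namely Orc6 (log2 0.74), Mcm7 (log2 0.74) and mip40 (log2 0.51), and none was called in the other time comparisons. Of 12 regulators of late follicle cells, br, a zinc-finger gene of dorsal appendage patterning, rose at 2 h against 0 h (log2 0.68, SE 0.21), and sim fell at 8 h against 0 h (log2 -1.08, SE 0.27). At 8 h against 2 h 5 of the 12 fell: br, ct, the octopamine receptor gene Oamb, the matrix metalloproteinase gene Mmp2, both known from ovulation, and sim, at log2 -1.13 to -0.78. Of 5 follicle cell genes active before the eggshell forms, of which slbo is also among the 12 regulators and Yp1 among the yolk genes, tj and peb fell at 8 h against 0 h, and tj and mirr at 8 h against 2 h. Of 8 female germline genes, nanos and bcd rose and grk fell at 8 h against 2 h. Summed over the 8 germline genes, levels had medians of 1162, 993, 958 and 1106 CPM at 0, 2, 4 and 8 h. The part of these follicle cell and germline levels in the chorion differences was not tested.

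In males, which have no follicle cells, 7 of the 9 genes were at or near 0. Cp36 had 6 counts in all 48 libraries together, Cp38 6, Cp7Fc 5, Cp16 4 and Cp19 10, with at most 4 in any library. Cp7Fa had 34 and Cp7Fb 33, again with at most 4 per library. Cp15 was counted in all 48 males, at 4 to 60 counts, and Cp18 in 46. Male Cp15 reached 11.2 CPM, scaled among the males, and 7 females had no more than that, so Cp15 levels of that size in a female are within the male background. Male Cp18 reached 3.81 CPM, and 33 females had no more than that. For Cp36 the highest male level was 0.843 CPM, which 15 females did not exceed.

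As a description over the 48 females, the genes whose levels followed the summed chorion genes most closely by Spearman correlation of log2(CPM + 1) were CG13083 (0.81), CG13084 and CG31928 (both 0.72), Muc4B (0.71) and CG13113 (0.70). CG15570, CG15571, CG16956, CG43965 and CG11381 followed, at 0.70 to 0.66. CG13083 reached 277 CPM and had a median of 0.373. All points share library depth and fly, and no test was made.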

How the data were processed

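Whole-body polyadenylated RNA of 96 single flies was sequenced as stranded libraries. The deposited values are raw read counts per gene, 1 file per fly, made by the authors; per the submitters' processing notes, which give no order or role, the tools were HTSeq 0.6.1p1, TopHat2 2.1.0, STAR 2.4.2a, bcl2fastq 1.8 and CASAVA 1.8.2. The authors' build was not given in the sources used here. The 96 spike-in rows and 5 summary lines, the latter 8.73 to 23.3% of all counts, were left out. Gene names came from the reference annotation, with 17155 of 17370 identifiers matched. Annotation coordinates gave only gene order, exonic length and overlaps with other genes.

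All 48 females were fitted together as 16 groups with edgeR 4.0.16 (TMM scaling, filterByExpr, quasi-likelihood test, Benjamini-Hochberg adjustment over 10060 genes, threshold 0.05; R 4.3.3). All 9 chorion genes passed the filter. Each SE was worked back from the test, as the absolute log2 difference divided by the square root of the F statistic. CPM are over the genes that passed it, which held at least 92.5% of counts. Replicates were separate flies, and none of the 96 pairs of libraries within a group was a duplicate by a chi-square test of their counts. Depth was 2617075 to 9215796 gene counts per female. The fit was also run on simulated counts, with changes set in genes drawn at random from all those tested. That run does not measure recovery for genes as variable as the chorion genes. Alternatives were another scaling, other filters, DESeq2 1.42.0, robust dispersion, omission of ribosomal RNA, replicate blocks, and omission of each library. The foods with and without DMSO were also compared apart, within the fit of all 48 females. The members and gene lists were chosen with earlier results of these data known. The text names all 9 members, and of each list the genes called in a time comparison. Flies named singly were chosen after their values were seen.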

Additional observations from a re-analysis of the deposited data

Results flagged for a closer look

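A late chorion gene was counted in male flies, which no comparison used. Cp15 had a median of 19 counts per male library, with a range of 4 to 60, and more than 3 counts in all 48 males. Its median was 3.30 CPM in the 8 males sequenced in the same run as the females and 4.50 CPM in the 40 males of the other run, so it was present in both. Cp18 had a median of 5.5 counts per male library, with more than 3 in 35 of 48. The early gene Cp36 had more than 3 counts in 1 male library. The source of the male counts was not tested.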

How the results depend on the processing

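The counts of chorion genes called were 3, 0, 2 and 3 at 2 h, 4 h and 8 h against 0 h and at 8 h against 2 h. DESeq2 called 5, 3 and 6 in the comparisons with 0 h and 1 for assigned DMSO at 0 h; over all genes it called 1868, 255, 704 and 31, against 1373, 0, 361 and 42 in edgeR. With no filter on low counts 1 gene was called at 8 h against 0 h. On food without DMSO alone, 3 flies against 3, 0 were called at 2 h against 0 h, 0 at 8 h against 0 h and 0 at 8 h against 2 h; on the 3 foods with DMSO, 1, 1, 0 and 0 were called in the 4 time comparisons. On food without DMSO the log2 difference of Cp16 at 2 h against 0 h was 3.46 and that of Cp19 2.63. Both were opposite in sign to the comparison over all foods, and neither was called. The cause of these changes was not tested, beyond the smaller number of flies. Scaling, robust dispersion, a filter of at least 1 CPM in 12 libraries and omission of ribosomal RNA changed no count by over 1.5 times. Under other scalings of CPM the number of females at 10 CPM or more moved by at most 1 for each gene.

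The replicate numbers did not pair flies: 14 of 48 libraries correlated best with their own number, and same-numbered pairs had a mean correlation of -0.02. With the replicate number as a block, 1 gene was called at 2 h against 0 h and 0 at 8 h against 0 h.

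Leaving out each library in turn gave 0 to 5 calls at 2 h, 0 to 1 at 4 h, 0 to 3 at 8 h against 0 h, and 1 to 4 at 8 h against 2 h, and 0 for DMSO. In 34, 47, 29 and 44 of 48 omissions the counts were the main ones. At 2 h, 10 omissions left 1 gene called, Cp7Fa: at 0 h, 0.1% replicate 3 and 0.2% replicate 3, and at 2 h no DMSO and 0.1% replicates 2 and 3, 0.2% replicate 2 and 0.4% replicates 1, 2 and 3. At 8 h against 0 h, 13 left none: at 0 h, no DMSO replicates 1 and 3, 0.1% replicate 1, 0.2% replicate 2 and 0.4% replicate 3, and at 8 h, no DMSO and 0.1% replicates 1, 2 and 3, 0.2% replicate 2 and 0.4% replicate 1.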
